A study of Mus musculus with 2 samples.

Results

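The Toll-like receptors, their co-receptor CD14 and the adaptor MyD88 were followed in total RNA-seq of cells labelled megakaryocyte progenitor (CFU-Meg, the colony-forming precursor of the cells that release platelets). The 10 genes were Tlr1, Tlr2, Tlr3, Tlr4, Tlr5, Tlr6, Tlr7, Tlr9, Cd14 and Myd88. They were chosen by name and not by level, but with earlier results of these data known. All 10 were found among 43346 Ensembl genes in the deposited tables. Both libraries came from primary cells of male C57BL/6J mice aged 5 to 6 weeks, each from 1 ng of RNA, and they form 1 group with no treatment, genotype or control to set it against. They are separate biosamples under a shared donor identifier, and whether they came from separate animals is not stated, so the spread between them may be technical. The comparisons are therefore between genes, and between replicate 1 and replicate 2.

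Toll-like receptors are membrane proteins that recognise molecules of microbes and of damaged cells through leucine-rich repeats outside the membrane, and signal through a TIR domain inside the cell. Some sit at the cell surface and bind bacterial cell wall lipids and flagellin, and others sit in endosomes and bind nucleic acids. Apart from TLR3, they signal through MyD88, which recruits IRAK kinases and TRAF6 and leads to NF-κB activity and cytokine genes. In bone marrow they are known from monocytes, granulocytes and dendritic cells, and stem and progenitor cells can carry them too.

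Replicate 1 held 82746658 expected counts and replicate 2 held 75652762. Levels are TPM (a measure of transcript abundance scaled to the library and corrected for length) in each library, with mean ± SD (n = 2), and positions are on mm10. Markers of the labelled cell type were low. Of 8 megakaryocyte markers, 2 reached 1 TPM in both libraries, and the list summed to 9.96 in replicate 1 and 6.31 TPM in replicate 2. The 10 granulocyte markers summed to 16206 and 17108 TPM and the 8 monocyte markers to 3003 and 3443 TPM. Erythroid markers summed to 23.6 and 30.2 TPM, stem cell markers to 18.0 and 12.8 TPM, and macrophage markers to 13.1 and 18.9 TPM. By list median of mean TPM, macrophage markers lay below megakaryocyte markers, at 0.185 against 0.905 TPM. The 5 B cell markers summed to 0.16 and 0.37 TPM, and the 5 T and NK cell markers to 1.79 and 0.75 TPM, of which Lck held 1.08 and 0.50 TPM. The defining T cell markers Cd3e and Cd3g were at 0 expected counts in each library. The limits, set at the TPM of 3 counts, were 0.037 and 0.040 TPM for Cd3e and 0.110 and 0.118 TPM for Cd3g. The authors' credibility intervals for Cd3g reached higher, to 0.408 and 0.433 TPM. In bulk RNA, fewer cells that express a gene and less RNA of it per cell cannot be told apart, so each level is an average over the cells collected.

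Of the 10 genes, 7 reached 1 TPM in both libraries, against 46.2% of 21461 nuclear protein-coding genes. The 7 included Cd14 and Myd88, and of the 8 receptors 5 did so (62.5%). Of the other mouse receptors, Tlr8, Tlr11, Tlr12 and Tlr13, 1 of 4 did. The members were chosen with earlier results of these data known, so these shares are a description and not a test. The median of the 10 mean levels was 2.47 TPM, against 0.585 TPM over the nuclear protein-coding genes. The adaptor Myd88 stood highest and the double-stranded RNA receptor Tlr3 lowest. In the order of mean TPM, Myd88 was followed by Cd14, Tlr4, Tlr2, Tlr1, Tlr6, Tlr7, Tlr9, Tlr5 and Tlr3. Of the 9 pairs of neighbours in that order, 5 had library values that overlapped and so did not differ beyond their spread, namely Cd14 and Tlr4, Tlr4 and Tlr2, Tlr6 and Tlr7, Tlr7 and Tlr9, and Tlr5 and Tlr3. In the other 4 pairs, Myd88 and Cd14, Tlr2 and Tlr1, Tlr1 and Tlr6, and Tlr9 and Tlr5, the values of the 2 libraries did not overlap. Tlr9 and Tlr5 came close, at 0.94 TPM for Tlr9 in replicate 1 and 0.92 TPM for Tlr5 in replicate 2, and by the authors' posterior mean TPM they overlapped, at 0.93 and 0.96, which made 6 overlapping pairs.

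**Figure D1:**
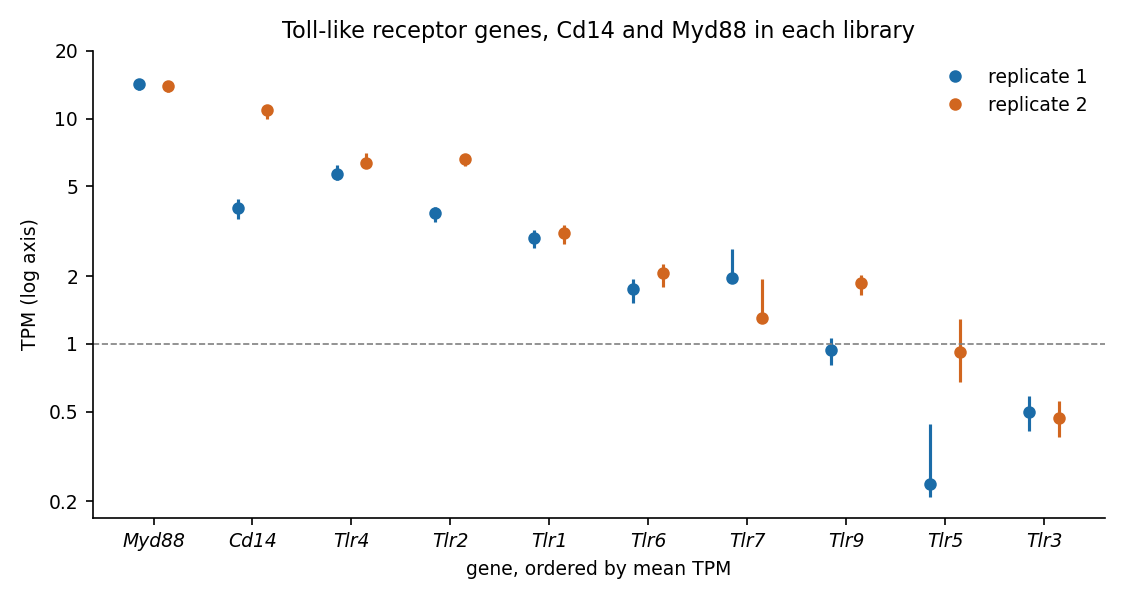
TPM of each gene (log axis) in replicate 1 (blue, left) and replicate 2 (orange, right), with vertical lines for the authors' credibility interval and a dashed line at 1 TPM. Myd88 lies near 14 TPM in both libraries, and Cd14, Tlr2, Tlr9 and Tlr5 have intervals that do not meet, each with the higher value in replicate 2.

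Myd88 (ENSMUSG00000032508.8, chromosome 9, 119335934 to 119341411, minus strand), the adaptor used by every member receptor but Tlr3, had 14.25 TPM in replicate 1 and 13.93 TPM in replicate 2, from expected counts of 1619 and 1469. The values differed by 0.32 TPM, and 79.8% of nuclear protein-coding genes had a lower mean. Its 223 exonic bases that overlap exons of Acaa1a on the opposite strand are a limit, since no source used here says whether the counting used strand.

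Lipopolysaccharide is the outer membrane lipid of Gram-negative bacteria. RNA for its receptor complex was detected in both libraries, with Tlr4, Cd14 and Ly96 each above 1 TPM. The complex itself, as protein, was not measured. Tlr4 (ENSMUSG00000039005.9, chromosome 4, 66827584 to 66930284, plus strand), its signalling receptor, had 5.70 TPM in replicate 1 and 6.37 TPM in replicate 2. Its mean of 6.04 ± 0.47 TPM was the highest of the 8 receptors, though in replicate 2 Tlr2 was higher, at 6.64 TPM. Cd14 (ENSMUSG00000051439.6, chromosome 18, 36725067 to 36726798, minus strand), which hands the lipid to the complex, had 4.02 TPM in replicate 1 and 10.87 in replicate 2. The libraries thus disagreed on whether Cd14 or Tlr4 was the higher. Ly96, which encodes MD-2, the part of the complex that holds the lipid, had 3.96 TPM in replicate 1 and 3.32 TPM in replicate 2, within overlapping credibility intervals.

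The lipoprotein receptors form pairs of TLR2 with TLR1 or TLR6. Tlr2 (ENSMUSG00000027995.10, chromosome 3, 83836272 to 83841767, minus strand), the shared partner, had 3.83 TPM in replicate 1 and 6.64 TPM in replicate 2. Tlr1 (ENSMUSG00000044827.6, chromosome 5, 64924679 to 64933563, minus strand), the partner for lipopeptides with an added amino-terminal fatty acid, had 2.96 TPM in replicate 1 and 3.10 TPM in replicate 2. Tlr6 (ENSMUSG00000051498.4, chromosome 5, 64952031 to 64960097, minus strand), the partner for lipopeptides without it, had 1.75 TPM in replicate 1, and 2.06 in replicate 2. The shared partner was the highest of these genes in both libraries, and Tlr1 lay above Tlr6 in both without overlap.

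Tlr1 and Tlr6 are neighbours on the same strand, with 18467 bases between them, and share sequence. In the leading transcripts of GENCODE M21, 454 windows of 50 bases of Tlr1 (16.6% of its windows) occur unchanged in Tlr6. The shared part comprises 6 identical runs of 50 bases or more, all in coding sequence, 748 bases in all. The longest run, of 229 bases, is shown with 30 bases on each side because reads that fall in it fit both genes. The sequences come from the GENCODE M21 transcripts, and capitals mark the 2 positions at which the genes differ. The Tlr1 stretch lies at chr5:64925507-64925795 and the Tlr6 stretch at chr5:64953798-64954086, both on the minus strand.
Tlr1: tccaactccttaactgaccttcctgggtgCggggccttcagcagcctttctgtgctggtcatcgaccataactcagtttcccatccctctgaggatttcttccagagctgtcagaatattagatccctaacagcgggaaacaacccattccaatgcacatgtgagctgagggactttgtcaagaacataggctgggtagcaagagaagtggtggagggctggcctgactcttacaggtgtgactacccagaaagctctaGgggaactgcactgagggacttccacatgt
Tlr6: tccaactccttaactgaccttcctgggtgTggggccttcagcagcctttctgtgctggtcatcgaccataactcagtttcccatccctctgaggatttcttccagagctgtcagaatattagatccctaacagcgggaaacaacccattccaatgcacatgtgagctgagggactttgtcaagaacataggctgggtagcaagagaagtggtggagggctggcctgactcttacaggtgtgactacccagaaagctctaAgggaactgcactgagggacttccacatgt
The deposited counts show the division of such reads. Tlr1 was given 461.77 and Tlr6 268.23 expected counts in replicate 1, which sum to 730 to within rounding, and 450.23 and 292.77 in replicate 2, which sum to 743. The other 8 genes had whole expected counts. The total of Tlr1 and Tlr6, 4.71 TPM in replicate 1 and 5.16 TPM in replicate 2, rests on counts that hold however the reads were shared between them, whereas the separate values do not. The tables used shorter models than GENCODE M21 for both genes, of 2652 bases for Tlr1 and 2603 bases for Tlr6, against 2783 and 3677.

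Tlr5 (ENSMUSG00000079164.4, chromosome 1, 182954788 to 182976044, plus strand), the receptor for bacterial flagellin, was low, with 0.24 TPM in replicate 1 and 0.92 TPM in replicate 2. Its expected counts were 45 and 97, the fewest of any member in each library. The gap in TPM, 3.83-fold, was wider than the gap in counts, 2.16-fold, and the gene's effective length was 3060 bases in replicate 1 and 1822 bases in replicate 2. In replicate 1 all of its TPM went to the protein-coding ENSMUST00000110997.2. In replicate 2 that transcript took 52.7%, while the short non-coding ENSMUST00000195614.1 (498 bases) took 38.2% from 7.37 expected counts, with a credibility interval of 0.00028 to 0.644 TPM. The protein-coding transcript alone stood at 0.24 TPM in replicate 1 and 0.49 TPM in replicate 2, where its credibility intervals, 0.154 to 0.297 and 0.306 to 0.560 TPM, did not meet.

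The members that bind nucleic acids and signal from endosomes are 3, and those of the cell surface are 5, so their sums cover unequal numbers of genes. Tlr3, Tlr7 and Tlr9, without their relatives Tlr8 and Tlr13, summed to 3.41 in replicate 1 and 3.63 TPM in replicate 2 (3.52 ± 0.16). Tlr1, Tlr2, Tlr4, Tlr5 and Tlr6 summed to 14.48 in replicate 1 and 19.09 TPM in replicate 2 (16.79 ± 3.26). Tlr7 (ENSMUSG00000044583.9, chromosome X, 167304929 to 167330558, minus strand), a receptor for single-stranded RNA, had 1.97 TPM in replicate 1 and 1.30 TPM in replicate 2. Tlr9 (ENSMUSG00000045322.10, chromosome 9, 106222598 to 106226883, plus strand), the receptor for unmethylated CpG DNA, had 0.94 TPM in replicate 1 and 1.86 TPM in replicate 2. Tlr7 was therefore the higher of these in replicate 1, and Tlr9 in replicate 2. Tlr3 (ENSMUSG00000031639.7, chromosome 8, 45395665 to 45411080, minus strand), which signals through the adaptor TRIF in place of MyD88, had 0.50 TPM in replicate 1 and 0.47 TPM in replicate 2, and 49.1% of nuclear protein-coding genes had a lower mean. Of its exons, 117 bases overlap Gm45542 on the opposite strand.

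The leading transcript took over 90% of Myd88 and Tlr4 in each library, and its share of Tlr3, Tlr5 and Tlr7 differed more. Tlr1, Tlr2, Tlr6, Tlr9 and Cd14 have 1 transcript each in the tables. The protein-coding ENSMUST00000035092.6 took 98.5% of Myd88 in replicate 1 and 98.9% in replicate 2, and a transcript with a retained intron took 1.53% and 1.13%. The protein-coding ENSMUST00000048096.7 took 92.2% of Tlr4 in replicate 1 and 100% in replicate 2. For Tlr7, ENSMUST00000060719.7 took 68.2% in replicate 1 and 100% in replicate 2, and ENSMUST00000112164.1, also protein-coding, took 28.1% in replicate 1 with an expected count of 0 in replicate 2. For Tlr3, ENSMUST00000034056.6 took 40.5% in replicate 1 and 100% in replicate 2, with ENSMUST00000167106.1 taking the rest of replicate 1. The credibility intervals of the Tlr3 transcripts in replicate 1, 0.051 to 0.445 and 0.0046 to 0.444 TPM, cover nearly the same range, so that the split between them was not resolved at 123 counts. Both of these Tlr3 transcripts are protein-coding.

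**Figure D2:**
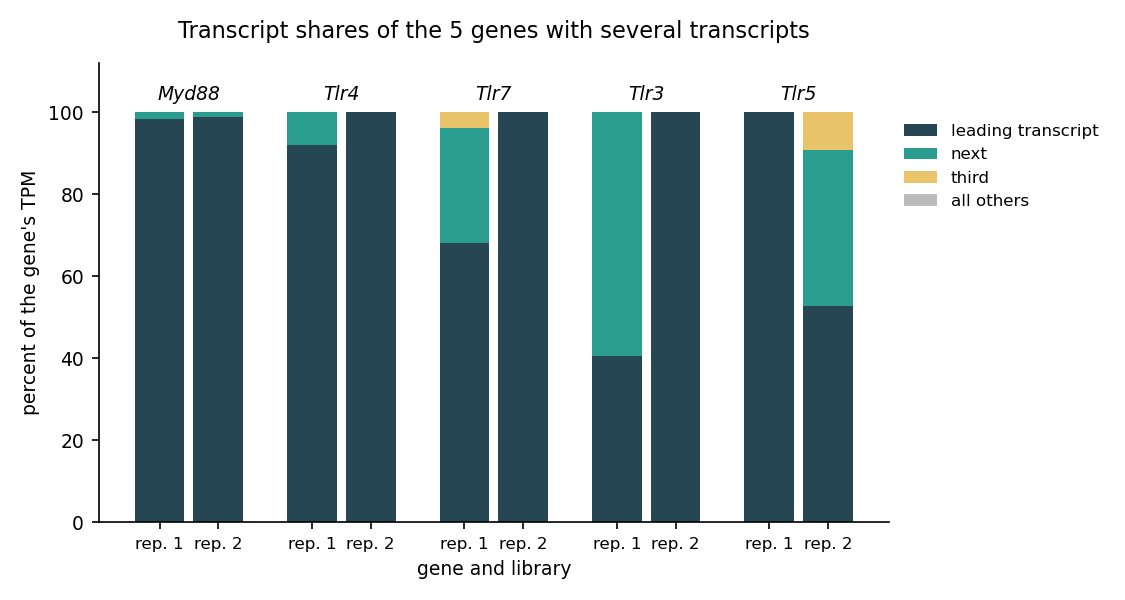
Percent of each gene's TPM given to its transcripts in replicate 1 (left bar) and replicate 2 (right bar) for the 5 genes with more than 1 transcript, ranked by mean share. The leading transcript took over 90% of Myd88 and Tlr4 in both libraries, and its share of Tlr3 was 40.5% in replicate 1 and 100% in replicate 2.

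The libraries were next compared gene by gene with an exact two-sided binomial test of the reads, adjusted by Benjamini-Hochberg over 14304 genes and called at an adjusted p under 0.05 with an absolute log2 ratio of 1 or more. The test covers counting error alone and compares 2 libraries, not conditions. All 10 members passed the filter on low counts. Higher in replicate 2 were 3 of the 10, Cd14, Tlr5 and Tlr9, where 2.62% of the genes tested were called in that direction and 7.66% in either. No member was called higher in replicate 1, where 5.04% of genes were called. Of the 8 members with a mean of 1 to 15 TPM, Cd14 and Tlr9 were called, against 3.11% of protein-coding genes in that range. Cd14 had a log2 ratio of replicate 1 to replicate 2 of -1.47 (adjusted p = 3.26e-65, exact binomial test), from 358 and 900 expected counts. Tlr5 had a log2 ratio of -1.22 (adjusted p = 2.99e-06, exact binomial test). Tlr9 had a log2 ratio of -1.01 (adjusted p = 3.84e-15, exact binomial test), from 196 and 359 expected counts, and this call was lost at -0.99 when libraries were scaled by total counts.

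The other 7 members were not called. Tlr2 came nearest, with a log2 ratio of -0.83 from 685 and 1101 expected counts (adjusted p = 7.05e-32, exact binomial test). By the same exact binomial test Tlr7 lay at 0.47 (adjusted p = 6.09e-05), Tlr4 at -0.31 (adjusted p = 1.24e-07) and Tlr6 at -0.28 (adjusted p = 0.043), all short of the fold required. Tlr1, Tlr3 and Myd88 lay at -0.11, -0.03 and -0.01. TPM was higher in replicate 2 for 7 of the 10 members, while among nuclear protein-coding genes 7920 were higher in replicate 1 and 6106 in replicate 2. By the authors' credibility intervals, 4 of the 10 members (Cd14, Tlr2, Tlr5 and Tlr9) had intervals apart, against 27.4% of nuclear protein-coding genes. Among the 7 members of 1 TPM or more in both libraries there were 2, Cd14 and Tlr2, against 47.6% of 9911 such genes.

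**Figure D3:**
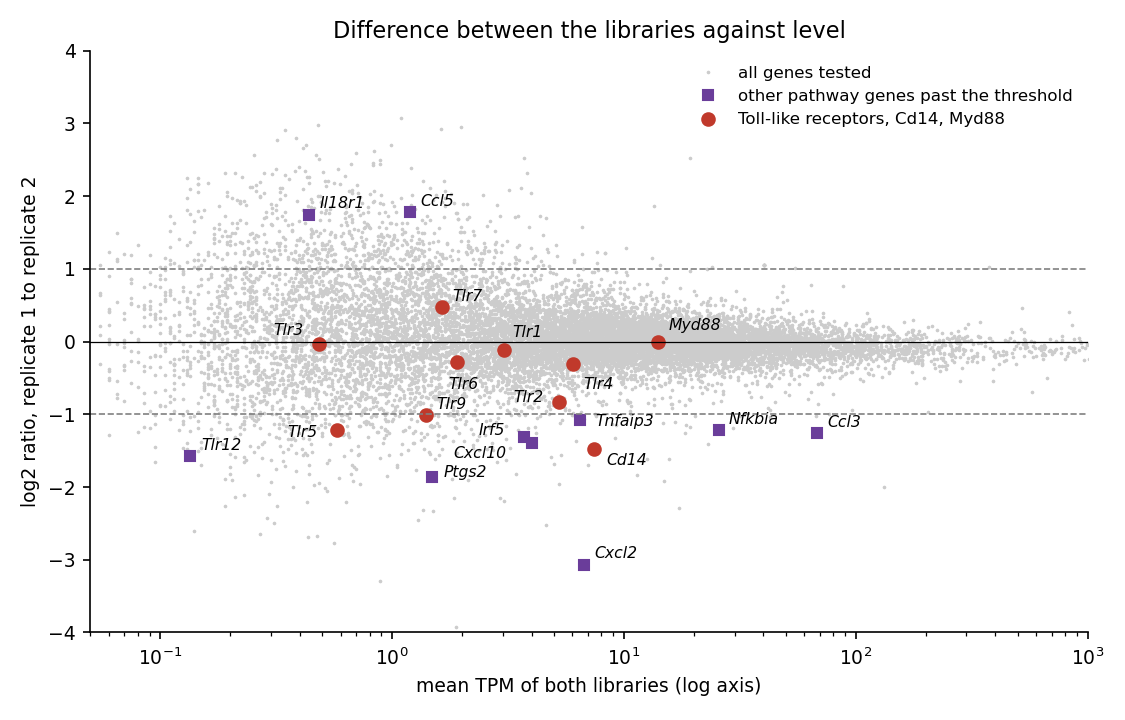
Log2 ratio of replicate 1 to replicate 2 against mean TPM (log axis) for 14191 of the 14304 genes tested (grey, the other 113 lie outside the axes), with the members in red and the other pathway genes past the threshold in purple. Dashed lines mark a log2 ratio of 1 and -1. Cd14, Tlr5 and Tlr9 lie under the lower line, Myd88, Tlr3 and Tlr1 lie near 0, and 8 of the 10 purple points lie on the side higher in replicate 2.

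No monocyte or granulocyte marker was called between the libraries, against 7.66% of all genes tested, though their TPM leaned to replicate 2. Klf4, at a log2 ratio of -0.996 (adjusted p = 5.61e-64, exact binomial test), fell short only of the fold required. So did Camp, at -0.96 (adjusted p = 8.08e-263, exact binomial test). Mpo and Elane lay the other way, at 0.16 and 0.36. All 8 monocyte markers had the higher TPM in replicate 2, as did 7 of 10 granulocyte and 5 of 6 dendritic cell markers. The dendritic cell list summed to 31.0 in replicate 1 and 50.5 TPM in replicate 2, of which Cd74, an antigen presentation gene also used by other cells, had 11.01 and 25.73 TPM and H2-Ab1 had 19.12 and 23.81 TPM. Cd74 was called higher in replicate 2 (log2 ratio -1.25). The other 4 of that list were under 0.5 TPM in each library. Among them, Itgax was called higher in replicate 2 (log2 ratio -1.27) and Ccr9 higher in replicate 1 (log2 ratio 1.22). Stem cell markers leaned the other way, with 4 of 5 higher in replicate 1 and Mecom called (log2 ratio 2.70), as did 3 of 5 T and NK cell markers. The megakaryocyte markers were split, with 4 of 8 higher in each library. The part of these markers in the differences of Cd14, Tlr5 and Tlr9 was not tested.

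Promoters of Tlr5 and Tlr9 are shown because both were called higher in replicate 2. RefSeq on GRCm38.p6 gave promoters for 7 of the 10 members, 9 windows in all, and none was used for Cd14. Each is the 250 bases before the start on the plus strand, at chr1:182954538-182954787 for Tlr5 and chr9:106222348-106222597 for Tlr9. Capitals mark matches, on either strand, to GAGGAA (the core of the PU box bound by PU.1), TGACTCA (AP-1), TATAAA and CCAAT.
Tlr5: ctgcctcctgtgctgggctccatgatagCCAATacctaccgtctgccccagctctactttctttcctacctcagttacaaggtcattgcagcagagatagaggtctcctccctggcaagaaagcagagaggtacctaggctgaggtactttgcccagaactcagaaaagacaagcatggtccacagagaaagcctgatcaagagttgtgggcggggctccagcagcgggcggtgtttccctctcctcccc
Tlr9: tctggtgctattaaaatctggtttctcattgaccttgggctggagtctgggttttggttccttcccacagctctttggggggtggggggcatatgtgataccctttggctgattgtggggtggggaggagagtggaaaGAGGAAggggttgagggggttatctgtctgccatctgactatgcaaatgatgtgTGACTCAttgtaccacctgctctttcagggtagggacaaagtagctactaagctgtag
The Tlr5 window held a CCAAT match, found in 33.8% of 32851 promoter windows of the same length. The Tlr9 window held a GAGGAA match, found in 23.3% of windows, and a TGACTCA match, found in 4.46%. Among the 9 member windows, 2 held GAGGAA, 1 of them Tlr9 and 1 Tlr1. A match describes letters and is not a site.

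The remaining mouse receptors were uneven. The means of Tlr11 and Tlr12 lay below those of all members, that of Tlr13 lay between those of Tlr3 and Tlr5, and that of Tlr8 (2.86 TPM) lay above the members' median of 2.47 TPM. Tlr8, a relative of Tlr7 in endosomes, had 2.22 TPM in replicate 1 and 3.50 TPM in replicate 2. Tlr13, which recognises bacterial ribosomal RNA, had 0.55 and 0.59 TPM, with credibility intervals that reached 5.72 and 5.76 TPM. Tlr12, a receptor for profilin of protozoa, had 0.06 TPM in replicate 1 and 0.21 TPM in replicate 2, from 12 and 36 expected counts. Tlr12 was called higher in replicate 2 (log2 ratio -1.58, adjusted p = 0.00035, exact binomial test), though its credibility intervals overlapped. Tlr11, its partner in profilin recognition, had 0.05 TPM in replicate 1, from 9 counts, and 0 counts in replicate 2, where the limit is 0.018 TPM. The credibility interval of Tlr11 in replicate 2 reached 0.027 TPM.

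Beyond the receptors, 86 other genes of the pathway were grouped by role, and 67 of them (77.9%) reached 1 TPM in both libraries, against the 46.2% of nuclear protein-coding genes. The list was written with earlier results of these data known, so this share is a description and not a test. Among co-receptors, Ly86 (MD-1) was the highest of its list, with 83.57 TPM in replicate 1 and 107.84 TPM in replicate 2, and its partner Cd180, a relative of TLR4 on B cells and myeloid cells, had 19.26 and 21.37 TPM. Both exceeded Ly96 and Tlr4 in each library. The scavenger receptor Cd36, a helper of TLR2, was the lowest co-receptor, with 0.56 and 0.38 TPM.

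The genes for folding, transport and cleavage of the receptors had a list median of 17.9 TPM, against 2.47 TPM for the members. Hsp90b1 encodes gp96, the chaperone of most Toll-like receptors, and had 380.75 TPM in replicate 1 and 401.91 TPM in replicate 2. Its co-chaperone Cnpy3 had 12.58 and 14.24 TPM. Unc93b1, which carries the nucleic acid receptors to endosomes, had 35.65 TPM in replicate 1 and 41.46 TPM in replicate 2, above the sum of Tlr3, Tlr7 and Tlr9 in each library. The endosomal protease gene Lgmn was the lowest of its list, with 1.21 and 0.94 TPM. The mean of Lgmn lay below those of Tlr4, Tlr2, Tlr1, Tlr6, Tlr7 and Tlr9, though its library values overlapped those of Tlr9 (0.94 and 1.86 TPM).

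The other adaptors lay below Myd88. Tirap, which bridges MyD88 to TLR2 and TLR4, had 3.15 TPM in replicate 1 and 2.91 TPM in replicate 2. Ticam1 (TRIF), the adaptor of TLR3 and of TLR4 in endosomes, had 3.69 and 4.76 TPM. Ticam2 (TRAM), which joins TRIF to TLR4, had 7.56 and 8.26 TPM, and its expected count of 1012.49 in replicate 1 was not whole, so some of its reads fit another row. Sarm1 was nearly absent, with 0.07 and 0.10 TPM.

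All 19 kinases and ubiquitin ligases reached 1 TPM in both libraries, with a list median of 13.1 TPM. The first kinases downstream of MyD88 were uneven. Irak4, which starts the chain, had 6.18 TPM in replicate 1 and 5.13 TPM in replicate 2, and its substrate Irak1 had 34.50 and 30.97 TPM. Irak2 had 2.05 and 2.80 TPM. Irak3 (IRAK-M), a relative that dampens the signal, had 24.10 TPM in replicate 1 and 27.39 TPM in replicate 2. Irak1 and Irak3 thus each exceeded Irak4 and Irak2 in both libraries. The ubiquitin ligase gene Traf6 had 11.17 and 10.16 TPM. The extremes of the list were a pair of TAK1-binding proteins, Tab2 with 81.96 and 65.14 TPM and Tab1 with 1.80 and 1.33 TPM. None of the 19 was called between the libraries, where 7.66% of all genes tested were called.

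The 7 transcription factors and 13 inhibitors tested held 3 calls, against 7.66% of all genes tested. Nfkb1, the precursor of the p50 subunit of NF-κB, was the highest factor, with 23.09 TPM in replicate 1 and 28.30 TPM in replicate 2, and Relb the lowest, with 0.02 and 0.09 TPM. Irf5, a factor that acts directly after MyD88, was called higher in replicate 2, with 2.53 TPM in replicate 1 and 4.90 TPM in replicate 2 (log2 ratio -1.31, adjusted p = 2.83e-35, exact binomial test). The inhibitors Nfkbia and Tnfaip3 (A20), both also known as targets of NF-κB, were called higher in replicate 2. Nfkbia had 15.71 TPM in replicate 1 and 35.48 TPM in replicate 2, and Tnfaip3 had 3.72 and 9.26 TPM, with log2 ratios of -1.22 and -1.08. The phosphatase gene Ptpn6 was the highest inhibitor, with 49.80 and 48.27 TPM, and Socs1 the lowest, with 0.58 and 0.40 TPM.

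Among other receptors that signal through MyD88, those of the interleukin-1 family, 5 of 6 reached 1 TPM in both libraries. The shared chain Il1rap was the highest, with 9.98 TPM in replicate 1 and 9.45 TPM in replicate 2. Il18r1, the binding chain of the interleukin-18 receptor, was the lowest and the only 1 of the 6 called, against 7.66% of all genes tested. It had 0.66 TPM in replicate 1 and 0.22 TPM in replicate 2 (log2 ratio 1.75, adjusted p = 2.36e-12, exact binomial test).

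Known target genes of the pathway had a list median of 0.65 TPM, close to the 0.585 TPM of nuclear protein-coding genes. Under 1 TPM in both libraries were 8 of the 15, and 11074 of the 21461 nuclear protein-coding genes. The chemokine gene Ccl3 was the highest, with 41.03 TPM in replicate 1 and 95.07 TPM in replicate 2 (log2 ratio -1.26). Cxcl2, a neutrophil-attracting chemokine, had 1.44 TPM in replicate 1, and 11.97 in replicate 2, the widest gap among the pathway genes tested (log2 ratio -3.07, adjusted p = 3.33e-117, exact binomial test). Cxcl10 had 2.15 and 5.90 TPM, and Ptgs2, the inducible cyclooxygenase, had 0.55 and 2.41 TPM, with log2 ratios of -1.40 and -1.86. Ccl5 went the other way, with 1.92 TPM in replicate 1 and 0.48 TPM in replicate 2 (log2 ratio 1.78). Il12b and Cxcl1 were at 0 counts in each library, with limits of 0.027 and 0.029 TPM for Il12b and of 0.059 and 0.064 TPM for Cxcl1. The credibility intervals of Il12b reached 0.043 and 0.046 TPM.

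Over the whole pathway list, 77 of 86 genes passed the filter, of which 8 were called higher in replicate 2 and 2 higher in replicate 1, against 2.62% and 5.04% of all genes tested. The median log2 ratio of these 77 was -0.13, and it was -0.0039 over nuclear protein-coding genes. The 2 libraries cannot show whether these gaps would recur between other animals or preparations.

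**Figure D4:**
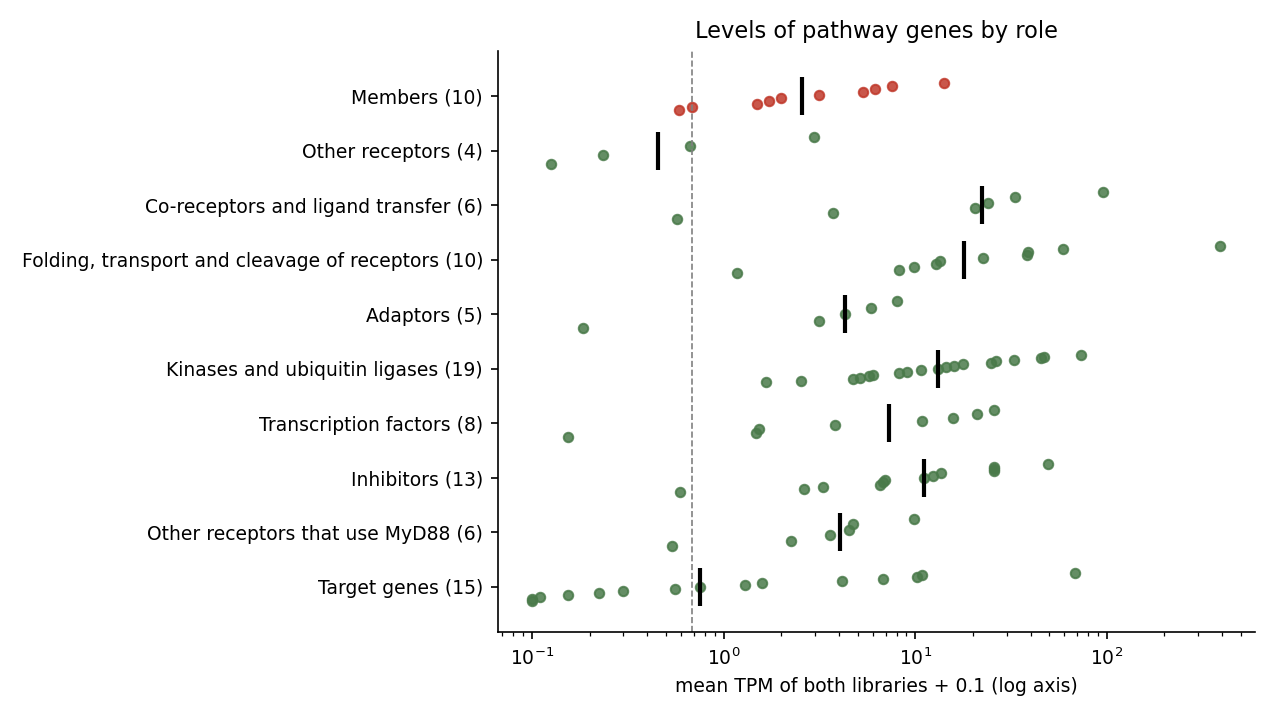
Mean TPM of both libraries plus 0.1 (log axis) for each gene of the pathway, grouped by role, with the number of genes in brackets, black bars at each list's median and a dashed line at the median of nuclear protein-coding genes. The medians of the kinases (13.1 TPM) and of the folding and transport genes (17.9 TPM) lie to the right of that of the members (2.47 TPM), and the target genes spread from an expected count of 0 to 68.05 TPM for Ccl3.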

How the data were processed

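Total RNA-seq of 2 libraries of 1 group was used. Per the lists that accompany the deposited files, reads were aligned to mm10 and quantified against GENCODE M4, each library on its own. The column names are those RSEM writes. Not given in the sources used here: aligner, quantifier version and strand setting. The deposited expected counts estimate reads for each gene or transcript, with shared reads divided among rows, per the file headers. The authors' TPM values are relative to all rows of a file, of which nuclear protein-coding genes held 401270 and 406140 TPM. The authors' FPKM served as an alternative. The deposited score columns hold credibility bounds in TPM, whose level is not stated, and the deposited percent columns give transcript shares.

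Symbols and positions came from GENCODE M21 (GRCm38, the assembly of mm10), which matched 98.0% of 43346 Ensembl rows. Expected counts were rounded, filtered with filterByExpr and scaled by TMM in edgeR 4.0.16 (R 4.3.3), with a prior count of 2 for log2 ratios. An exact binomial test compared the reads of the libraries, since edgeR's quasi-likelihood test needs groups, and the test was tried on simulated data first. The limit of an expected count of 0 is the TPM of 3 counts. It covers counting error only, and reads of a gene that also fit other genes can be assigned elsewhere. The authors' upper credibility bounds can lie above this limit. Depth was 82746658 and 75652762 expected counts. Rows that are not Ensembl genes (spike-ins and numeric identifiers) held 0.0031% and 0.0030% of them and stayed out of the test. The members and gene lists were chosen with earlier results of these data known. Named were all members, 18 pathway genes by name, and in each role list the highest, the lowest and those called. Alternatives were RLE or total count scaling, no filter, other thresholds, FPKM, posterior mean TPM, rescaling over nuclear protein-coding genes, and each library alone. With 2 libraries, likeness of pattern was not ranked. Values of some single marker genes are not reported here.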

Additional observations from a re-analysis of the deposited data

How the results depend on the processing

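The count of members at 1 TPM or more in both libraries was 7 and stayed between 5 and 9 under the alternatives run. The median of the pathway lists, 6.77 TPM, moved to 5.14 with FPKM and to 16.6 with TPM rescaled over nuclear protein-coding genes, and was 6.55 to 7.96 with each library alone. The 1096 genes called between the libraries became 3382 of 19635 with no filter on low counts, 2662 at an absolute log2 ratio of 0.5, and 628 of 11919 among nuclear protein-coding genes. Called members were 3, with 4 at an absolute log2 ratio of 0.5 and 2 with total counts, where Tlr9 fell short. Overlapping neighbours in the order of members were 5, and 6 with posterior mean TPM. With posterior mean TPM the log2 ratio of Tlr9 was -0.91, also short of the threshold. Ratios near 0 changed sign: Myd88 to 0.011 with total counts and 0.033 with posterior mean TPM, and Tlr3 to 0.074 with posterior mean TPM. The causes were not tested. Rescaling over nuclear protein-coding genes raised the TPM of all 10 members by more than their SD, and FPKM moved 5 of them. Below 1 TPM, the few counts of Tlr5 and Tlr3 limit the values. No paired analysis was possible because there is 1 group.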
